A study of Arabidopsis thaliana with 6 samples.

Results

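The regions described here are stretches of the Arabidopsis thaliana genome in which each of 3 deposited PIF4 ChIP-seq peak lists had at least 1 peak. Peaks on chromosomes 1 to 5 of the 3 lists were pooled, peaks overlapping by at least 1 bp were merged, and a merged region was kept when it held a peak of every list. The regions were thus selected on the measured peaks themselves, and their number and their presence in each list are a description, not a result. Of 15015 merged regions, 785 (5.23%) met the rule, and 3153 had peaks of at least 2 lists. The position of a region is the summit of its list 3 peak with most tags, where a tag is 1 sequenced read.

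PIF4 is a bHLH transcription factor that drives stem elongation in darkness, shade and warmth, and red light acting through phytochromes triggers its destruction. It binds DNA as a dimer, mostly at short E-box elements such as the G-box, and its known targets include genes of shade avoidance, of auxin and of other growth hormones. Several of those targets encode HLH or homeodomain proteins that feed back on the same pathway, and some of these proteins form dimers with PIFs that cannot bind DNA.

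The tagged group was a line described as overexpressing PIF4 with a Myc tag, and the control group was the wild type. The labels give the genotype as PIF4, while the design text calls the line P1M, a name that the sources used here do not explain; the identity of the tagged protein rests on the labels, and a peak inside the PIF4 gene in every list is the value in the files that bears on it. Both were whole seedlings, 3 days old, kept in the dark at 21 °C after 3 h of white light, and an antibody against Myc was used for both. There were 3 libraries per group, and each pooled the DNA of 4 ChIP assays from 2 biological replicates. Peaks were given for the PIF4-Myc libraries 1, 2 and 3 (lists 1, 2 and 3), with a wild-type ChIP as the control within each list. The promoter of the transgene was not given in the sources used here, the signal is a mixture over all tissues of the seedling, and the tagged protein was overexpressed.

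The lists were unequal. They held 12177, 4093 and 2931 peaks, from 12766185, 9385807 and 12292381 treatment tags in the file headers. By their headers, lists 1 and 2 name the same control and list 3 another. The sample descriptions instead tie each list to a wild-type library of its own, and which control was used was not settled. In list 1, every tag value was a multiple of 5, the filtered tag number (112342435) exceeded the total, and 51.2% of peaks had a fold enrichment below 1. Fold enrichment is the authors' ratio of tags at a peak to the local expectation; it belongs to single peaks, has no replicate error, and carries no counting interval here because no depth was available per position. Where a list had several peaks in a region, the values are those of its peak with most tags.

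List 1 folds were low in the shared regions. The list 2 fold was above the list 1 fold in all 785 regions, and the list 3 fold was above the list 2 fold in 779. Across the 785 regions the list 1 fold ranged from 0.41 to 2.81 with a median of 1.0, against a median of 0.99 for all list 1 peaks, and 385 regions (49.0%) had a list 1 fold below 1. The median list 2 fold was 2.96, against 2.46 for all list 2 peaks. The median list 3 fold was 4.51 (quartiles 3.64 and 5.99), against 4.17 for all list 3 peaks. List 1 peaks in the shared regions also stood in the middle of their own list, at a median rank of 47.6% by p-value score, whereas list 2 and list 3 peaks stood at 23.2% and 36.9%. The authors' false discovery rate was at most 5% in list 1 for 503 regions, in list 2 for 88 and in list 3 for 2. In list 3 its median over the shared regions was 49.26%, against 65.17% for all list 3 peaks.

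Folds of lists 2 and 3 ordered the regions alike, with a Spearman coefficient of 0.901 across 785 regions, while lists 1 and 3 gave 0.0846. Both are descriptions over regions, which are not replicates. List 2 and list 3 peaks began at the same base in 341 regions (43.4%), so these lists were not read as independent measurements. The shared regions took in 7.56% of list 1 peaks, 19.4% of list 2 peaks and 27.3% of list 3 peaks. They were wide, with a median of 1239 bp, against 860.5 bp for the 1626 regions of lists 2 and 3 only. Among regions with a list 3 peak, those with a list 3 peak of 209 to 656 bp were shared by all lists in 13.5% of cases and those with one of 1170 to 6118 bp in 44.1%, so a longer peak met a list 1 peak more often.

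The region with the highest fold of lists 2 and 3 lay 5677 bp from ATHB2, a shade-induced homeodomain gene, with no protein-coding gene within 2 kb. It was followed in list 3 by regions at ST2A, a sulfotransferase that acts on hydroxyjasmonate, at AT5G02580, at PIL1 with its neighbour ASY3, at the cytokinin oxidase gene CKX5, and at PIF6, a relative of PIF4. A list 3 fold of at least 10, a threshold chosen after the values were seen, was reached by 41 of the 785 shared regions (5.22%). The background over all 2909 merged regions with a list 3 peak was 2.65%, or 77 regions. The share of regions with a list 3 peak that were shared by all lists differed between bins of list 3 fold, from 22% under a fold of 4 to 53.2% at 10 or more, with 38.1% and 36.7% in the bins from 6 to under 8 and from 8 to under 10.

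The individual values show the split between the lists. At ST2A (chr5:2176990-2178692, TAIR10) the folds of lists 1, 2 and 3 were 1.44, 12.70 and 19.46, and the summit lay 1844 bp from the gene. At PIL1, a bHLH gene known for its fast response to shade, they were 1.46, 13.26 and 19.17 (chr2:19296733-19299808), with the summit 1214 bp from PIL1 and 420 bp from ASY3. At CKX5 (chr1:28318226-28319370) they were 2.11, 13.90 and 18.68, and the summit lay 628 bp from the gene. List 1 was by far the lowest at each of these genes, and its summits nevertheless fell within 3 bp, 3 bp and 2 bp of those of list 3.

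**Figure D1:**
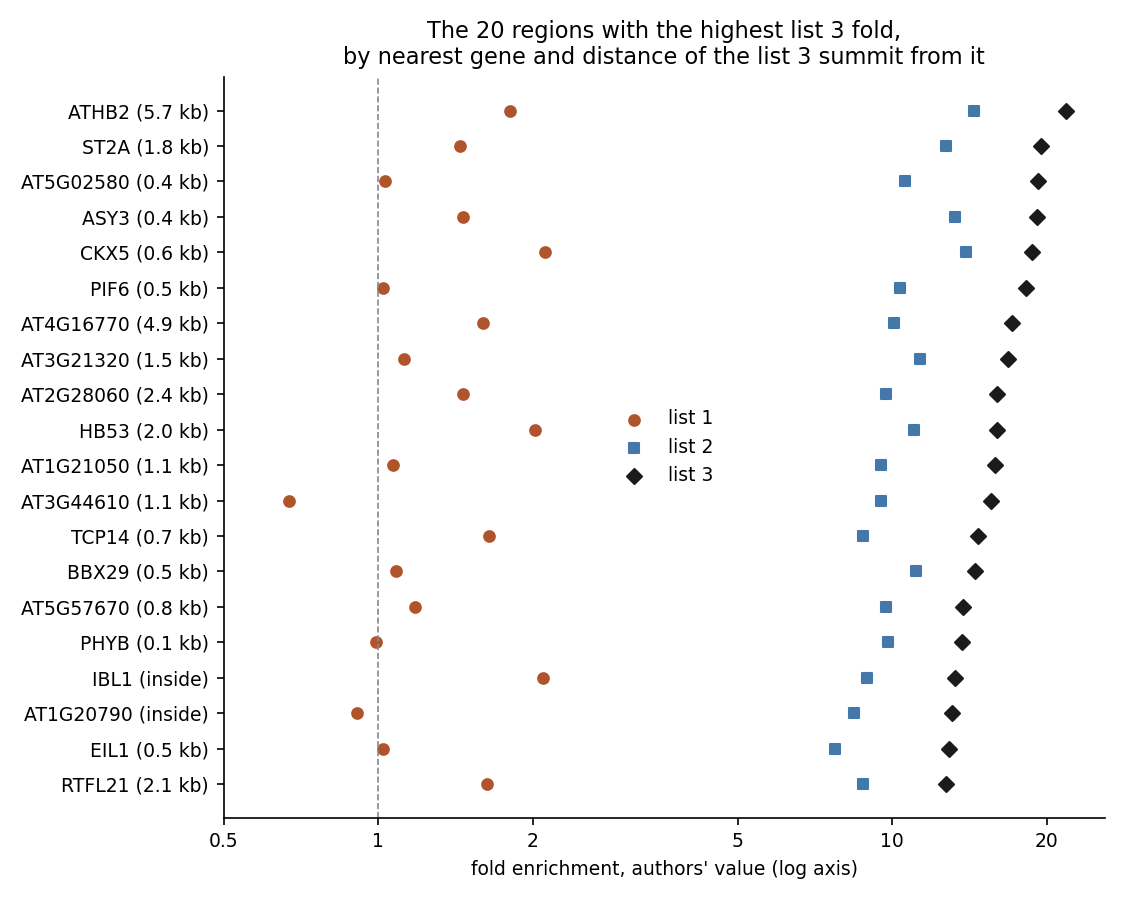
Fold enrichment, on a log axis, in list 1 (circles), list 2 (squares) and list 3 (diamonds) for the 20 shared regions with the highest list 3 fold, labelled by the nearest protein-coding gene and the distance of the list 3 summit from it. List 1 folds ran from 0.67 to 2.11 and list 2 folds from 7.74 to 14.46, and the dashed line marks a fold of 1.

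Summit positions matched closely between lists 2 and 3 and less closely between these and list 1. List 2 and list 3 summits were a median of 1 bp apart, and 702 regions (89.4%) had them within 100 bp. List 1 and list 3 summits were a median of 144 bp apart (quartiles 48 and 482 bp, highest 3154 bp), and 345 regions (43.9%) had them within 100 bp. In 34 regions the list 1 peak with most tags did not overlap the list 3 peak with most tags at all. In the 658 regions with a single peak of each list the median was 126 bp. By the nearest list 1 summit in place of the one with most tags, the median over all regions was 128 bp. By that measure 361 regions (46.0%) were within 100 bp.

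The agreement was closest at the very highest list 3 folds. Among the 20 regions with the highest list 3 fold, 17 had the list 1 summit within 50 bp of the list 3 summit. The exceptions were PHYB at 197 bp, AT1G20790 at 677 bp and RTFL21 at 82 bp. A list 1 fold below 1 was found in 3 of these 20, namely AT3G44610, with summits 21 bp apart, and the exceptions PHYB and AT1G20790. Over all 41 regions with a list 3 fold of at least 10, 19 (46.3%) had the summits within 50 bp, by the list 1 peak with most tags. The distance among them reached 2921 bp, at BRG3. Where list 1 had several peaks, a nearer list 1 summit could exist, as at ERF10, with 31 bp in place of 1535 bp. By bins of list 3 fold, summits were within 100 bp in 36.6% of regions under a fold of 4, 44.4% from 4 to under 6, 52.8% from 6 to under 8, 41.4% from 8 to under 10 and 65.9% at 10 or more. The bin from 8 to under 10 holds only 29 regions and breaks the order. Length differed between the bins as well, with a median list 3 peak length of 1048.5 bp in the lowest bin and 1317 bp in the highest, and its part in these shares was not tested. The bins were chosen after the values were seen.

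**Figure D2:**
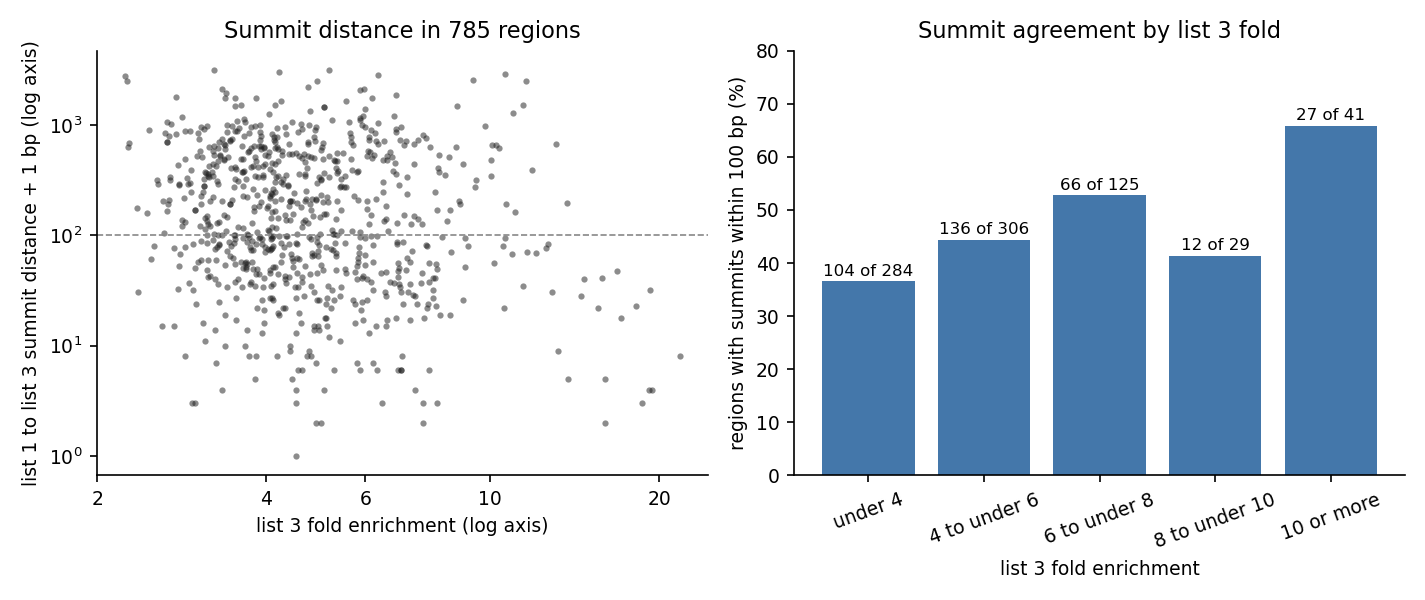
Left, distance between the list 1 and list 3 summits plus 1 bp against list 3 fold enrichment, both on log axes, with 1 point per shared region and a dashed line at 100 bp. Right, share of regions with these summits within 100 bp in bins of list 3 fold, with counts above the bars; the share is 36.6% in the lowest bin and 65.9% in the highest.

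Regions whose summits lay apart differed in length and in gene position, by a split chosen after the values were seen. Where list 1 and list 3 summits lay over 500 bp apart (188 regions), the median list 3 peak length was 1513 bp, against 927 bp where they lay within 100 bp. In those 188 regions 41.5% of list 1 summits but 62.2% of list 3 summits fell outside protein-coding genes. Where the summits lay within 100 bp the shares were 67.5% and 69.0%. For all list 1 peaks the share was 37.0%, and for all list 3 peaks 64.6%.

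The surroundings of ATHB2 held 3 neighbouring shared regions, a look taken after the values were seen. ATHB2 (AT4G16780) encodes a class II homeodomain-leucine zipper factor that promotes elongation in shade. At chr4:9440474-9441153 the folds of lists 1, 2 and 3 were 1.89, 8.64 and 11.66. At chr4:9441603-9442704 they were 1.60, 10.06 and 17.10. At chr4:9443015-9444672 they were 1.80, 14.46 and 21.78, the highest list 2 and list 3 folds of the 785 regions. All 3 lists thus had distinct peaks in each, and the list 1 summits lay 70, 17 and 7 bp from those of list 3. The list 3 summits were 8318, 7033 and 5677 bp from the near end of ATHB2, all in the gap between AT4G16770 and ATHB2, and no protein-coding gene came within 2 kb. The first 2 were nearer to AT4G16770, at 3590 and 4875 bp, so only the third had ATHB2 as its nearest gene. Closer to ATHB2, list 2 and list 3 peaks without a list 1 peak had folds of 5.36 and 7.97 at 3043 bp, and of 2.34 and 4.04 over the gene itself.

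**Figure D3:**
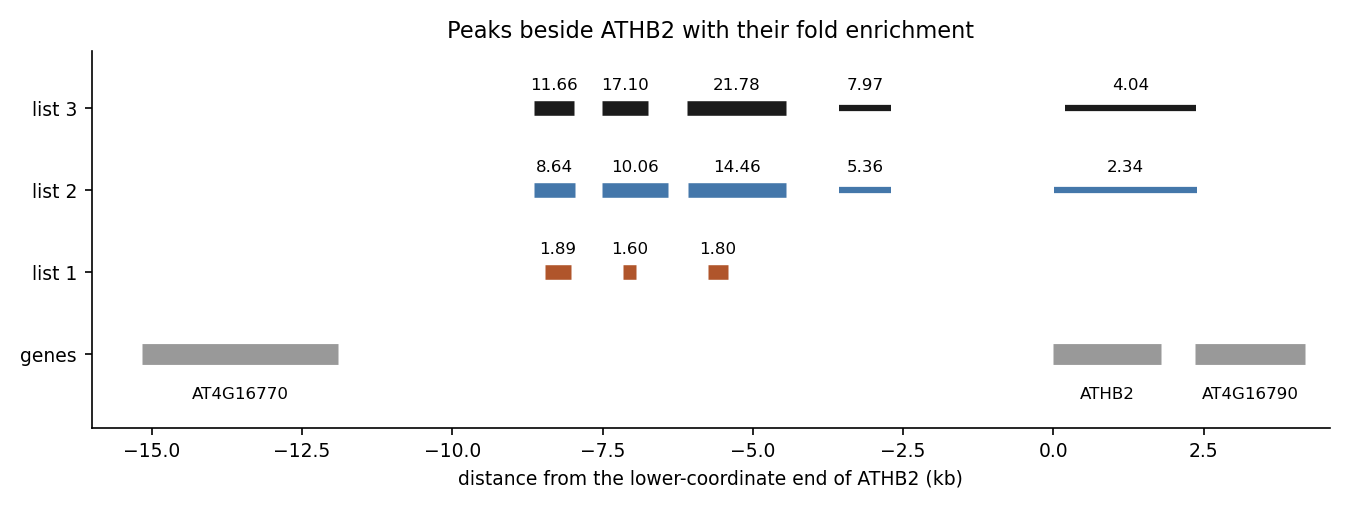
Peaks of lists 1, 2 and 3 around ATHB2 as horizontal bars, with the fold enrichment above each, against distance in kb from the lower-coordinate end of ATHB2; grey bars are protein-coding genes, thick peak bars belong to regions shared by all lists and thin ones do not. The 3 shared regions have summits 5677 to 8318 bp from the gene, and list 1 has no peak nearer to it.

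Shared regions occurred mainly outside genes and close to them. Of 785 summits, 517 (65.9%, exact 95% interval 62.4 to 69.2, counting error only) lay outside every protein-coding gene. The share was 67.6% in regions of lists 2 and 3 only and 54.0% in the 655 regions of lists 1 and 2 only. Since the position comes from list 3, the closeness to lists 2 and 3 follows in part from that choice. Summits within 2 kb of a gene or inside one numbered 722 (92.0%), against 87.0% in regions of lists 2 and 3 only. The share was likewise 92.0% for all list 1 peaks, with 87.9% for all list 2 peaks and 89.5% for all list 3 peaks. Of the 517 shared summits outside genes, 151 were within 250 bp of the nearest gene, a further 77 within 500 bp and a further 119 within 1000 bp. A further 107 were within 2000 bp, and 63 lay farther. The share outside genes was higher in each higher bin of list 3 fold, from 49.3% under a fold of 4 to 87.8% at 10 or more. The annotation used has no strand, so upstream and downstream were not told apart.

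**Figure D4:**
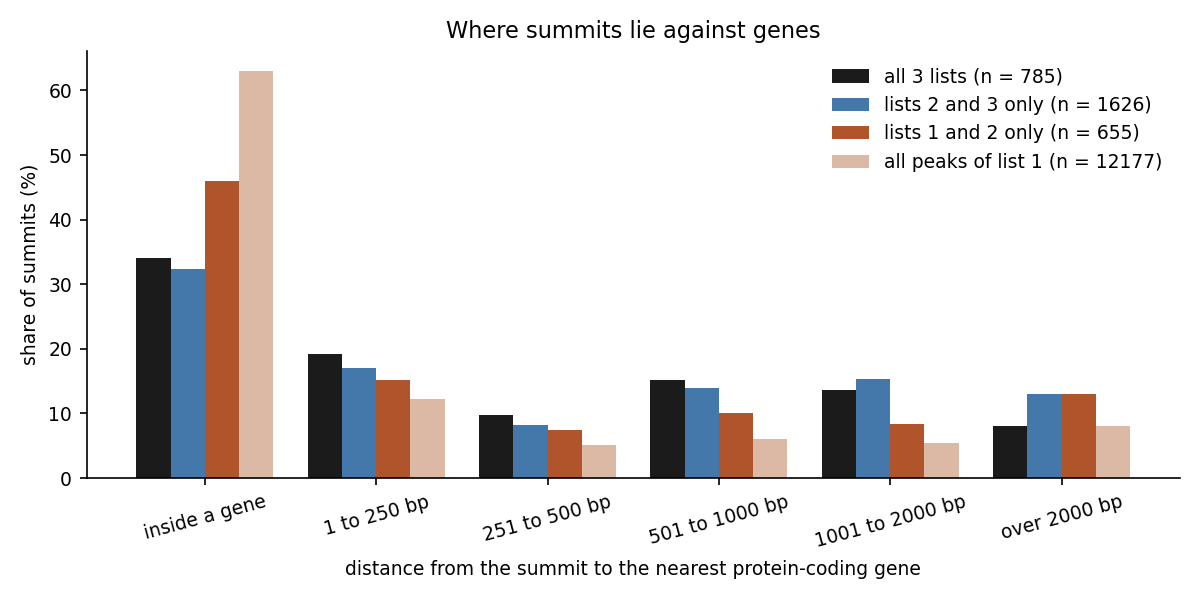
Share of summits, in percent, by distance to the nearest protein-coding gene for the 785 shared regions, the regions of lists 2 and 3 only, the regions of lists 1 and 2 only and all list 1 peaks. Shared regions lay inside a gene in 34.1% of cases and over 2000 bp from any gene in 8.03%.

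Many shared regions had more than 1 protein-coding gene near the summit. The counts of this paragraph are given without those over all peaks, so they are not read as particular to these regions. In 328 regions the summit had 2 protein-coding genes inside the 2 kb window, in 94 it had at least 3, in 300 it had 1 and in 63 it had 0, so that a summit often cannot be assigned to a single gene. The regions were spread over chromosomes 1 to 5 as 224, 119, 142, 122 and 178. By a spacing of 10 kb chosen after the values were seen, 580 stood alone, 90 pairs and 7 groups of 3 formed, and 1 group held 4. That group lay on chromosome 2 at SHP2, PDF1, PAR1 and MPK20. Its list 3 folds were 5.01, 4.87, 8.03 and 7.26, and its list 1 summits fell 1, 13, 54 and 71 bp from those of list 3.

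A gene was counted as reached when a summit fell in it or no more than 2 kb away. By this measure 1200 of 27444 protein-coding genes were reached, a background of 4.37%. The median list 3 fold at a reached gene was 4.4. Gene lists are described against those values by counts alone. Among shade and PIF targets, 9 of 22 genes (40.9%) were reached, with a median list 3 fold of 8.85. They were ST2A, PIL1, CKX5, HFR1, ATHB4, FHL, PAR1, HAT2 and IAA19. These targets were in part known from work on PIF proteins and are not independent evidence. ATHB2 was not counted, because the shared regions in the gap beside it lay outside the window.

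HFR1 and PAR1 encode HLH proteins that restrain shade responses. HFR1 shares a wide region (chr1:464664-470085) with AT1G02350, and its summit lay 1406 bp from HFR1 and 532 bp from AT1G02350. Its folds in lists 1, 2 and 3 were 0.72, 2.96 and 12.56. List 2 had a pair of peaks there, and the one with most tags had its summit 3735 bp from that of list 3, so the list 2 value describes another site in the region. PAR1 (chr2:17835249-17838896) had 1.2, 4.78 and 8.03, with the summit 691 bp from the gene. List 3 was the highest list at both genes.

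The growth-related HLH genes formed a group with much the same share, 6 of 15 (40%), and a median list 3 fold of 8.885. IBL1 and IBH1 encode atypical HLH inhibitors of cell elongation, and CIB1 and BEE1 encode bHLH proteins that promote flowering or brassinosteroid-linked growth. IBL1 (chr4:14870391-14872898) had a summit inside the gene and folds of 2.09, 8.94 and 13.24, with list 1 and list 3 summits 8 bp apart. IBH1 had 1.15, 7.70 and 11.43, with the summit 1736 bp from the gene. CIB1 had 0.86, 6.58 and 10.23, and BEE1 had 1.26, 4.37 and 7.54 with the summit inside the gene. PRE6 and CIB5 completed the group with list 3 folds of 6.17 and 3.23. Each of these regions held 2 list 1 peaks. The list 1 summit with most tags lay 1751 and 3132 bp from that of list 3, but the nearest list 1 summit 675 and 7 bp.

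In the PIF family itself, 3 of 9 genes were reached (33.3%). PIF6 (chr3:22990782-22992082) had folds of 1.02, 10.36 and 18.21, and its list 3 false discovery rate was 0%. SPT, a bHLH gene that acts in carpel and seedling growth, had 1.66, 1.94 and 3.97. PIF4 (chr2:17886919-17889972) had 2.18, 5.64 and 5.05 with its summit inside the gene and was among the regions where list 2 exceeded list 3. DNA of the PIF4 transgene and binding at the native gene cannot be told apart there.

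Homeodomain genes of HD-Zip class II were reached at 4 of 10 (40%). ATHB4 (chr2:18521195-18523960) had folds of 1.39, 6.10 and 8.85, HAT2 had 1.03, 4.1 and 6.79, ATHB18 had 2.29, 5.12 and 5.22, and HAT22 had 0.94, 2.54 and 4.61. Each summit lay between 1089 and 1849 bp from its gene, so none of the 4 was inside the gene. HB53, a homeodomain gene that is not on the list, had 2.02, 11.03 and 15.99 with the list 1 summit 4 bp from that of list 3.

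Light-signalling genes were reached at 5 of 26 (19.2%). PHYB, which senses red light and starts the degradation of PIFs, had 0.99, 9.83 and 13.69 at chr2:8137816-8142077, with the summit 141 bp from the gene. FHL, which helps carry phytochrome A into the nucleus, had 0.58, 4.93 and 8.13. PHYA had 0.76, 3.78 and 5.86, and SPA4, a partner of the ubiquitin ligase COP1, had 1.37, 3.45 and 5.35. All but SPA4 among these had a list 1 fold below 1, as had 49.0% of all shared regions. PHOT1, a blue-light receptor, was the remaining gene, with 2.01, 3.1 and 3.45.

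B-box genes, a family of zinc-finger regulators many of which act in light signalling, were reached at 4 of 32 (12.5%), though with a median list 3 fold of 9.1. BBX29 (chr5:22114836-22116378) had 1.08, 11.11 and 14.52, BBX28 had 0.76, 7.03 and 11.10, BBX23 had 1.39, 4.47 and 7.10, and BBX8 had 1.4, 2.91 and 4.19. The first 2 were the stronger pair in both list 2 and list 3.

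Auxin genes were counted on several lists, and IAA19 is also on the list of shade targets; no difference between lists was tested. Auxin transport had 4 of 17 (23.5%): WAG2, a kinase that directs PIN carriers, LAX3 and AUX1, which are influx carriers, and ABCB19, an efflux transporter. In list 3 they stood at folds of 5.13, 4.38, 4.31 and 4.06. Of the auxin response factors, 3 of 22 were reached (13.6%). ARF8 stood out in list 1, with folds of 2.64, 5.01 and 6.87 and its summit 9 bp from the gene, while ARF18 and ARF6 had list 3 folds of 5.32 and 3.06. Aux/IAA repressors had 3 of 29 (10.3%), IAA19, IAA7 and IAA4, with list 3 folds of 6.77, 3.65 and 2.95. Their list 3 false discovery rates were 14.6%, 69.48% and 84.27%. SAUR genes had 7 of 80 (8.75%), and the SAUR gene was the nearest one in only 2 of the 7. The leading ones were SAUR9, SAUR50, SAUR72 and SAUR69 at 7.98, 6.82, 6.18 and 4.92 in list 3. Among genes that make auxin, 1 of 14 was reached, TAR2, at 4.62. For comparison, 12 of 29 Aux/IAA genes and 14 of 80 SAUR genes had a region of lists 2 and 3 only, beside 2145 of all 27444 protein-coding genes. Such a region was also found at 9 of 22 shade and PIF targets, 7 of 15 growth-related HLH genes, 5 of 10 HD-Zip class II genes and 1 of 9 PIF family genes. High shares were thus not particular to the regions shared by all lists.

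Among the genes of other hormones, ST2A, CKX5 and EIL1 had a list 3 fold of at least 10. Jasmonate genes had 5 of 24 (20.8%), led by ST2A and followed by the repressor genes JAZ2, JAZ1 and JAZ3, with list 3 folds of 4.32, 4.12 and 4.07. Ethylene genes had 5 of 27 (18.5%). EIL1, a transcription factor at the end of that pathway, had 1.02, 7.74 and 12.89, whereas ACO5, the receptor gene ERS2 and EIN3 had list 3 folds of 3.84, 3.81 and 3.81. Brassinosteroid genes had 3 of 17 (17.6%), BAS1, BIN2 and BIM1, with list 3 folds of 5.65, 5.00 and 3.62. Gibberellin genes had 4 of 28 (14.3%), namely the receptor gene GID1B, the biosynthetic GA20OX3, the catabolic GA2OX4 and the DELLA gene GAI, with list 3 folds of 6.92, 6.85, 5.90 and 3.78. Cytokinin genes had 3 of 37 (8.11%): CKX5, the response regulator ARR8 at 6.47 and IPT2 at 3.77.

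Cell-wall loosening genes, the expansins and XTH enzymes, had 7 of 63 (11.1%), led by EXPA1, EXPB3, EXPA9 and EXPB1 with list 3 folds of 10.18, 5.99, 5.86 and 5.53. In 3 of the 7 another gene was nearer, namely at EXPA1, EXPB3 and EXPB1. The summit with the fold of 10.18 lay 1067 bp from EXPA1 and 396 bp from AGL94. Another shared region, with its summit 200 bp from EXPA1, had a list 3 fold of 4.24. Clock genes had 1 of 17, GI, with folds of 1.49, 5.83 and 7.35 and list 1 and list 3 summits 3 bp apart. Genes of chlorophyll synthesis and antenna proteins had 1 of 34 (2.94%), LHCA2 at 5.99. MicroRNA genes had 6 of 326 (1.84%), namely MIR159a, MIR396a, MIR168a, MIR1888a, MIR169b and MIR396b, with list 3 folds of 7.69, 3.43, 6.88, 3.4, 4.01 and 6.17.

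The control lists set the scale for these shares. Cytosolic ribosomal proteins had 2 of 43 (4.65%) and histones 1 of 21 (4.76%), both near the background. Actins and tubulins had 3 of 23 (13%), at TUA6, TUB5 and ACT7 with list 3 folds of 4.83, 3.42 and 3.13, which was above the share of the B-box, Aux/IAA and SAUR lists among others. RPL23AA, RPL18 and HTR12 had list 3 folds of 4.37, 2.87 and 5.52.

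**Figure D5:**
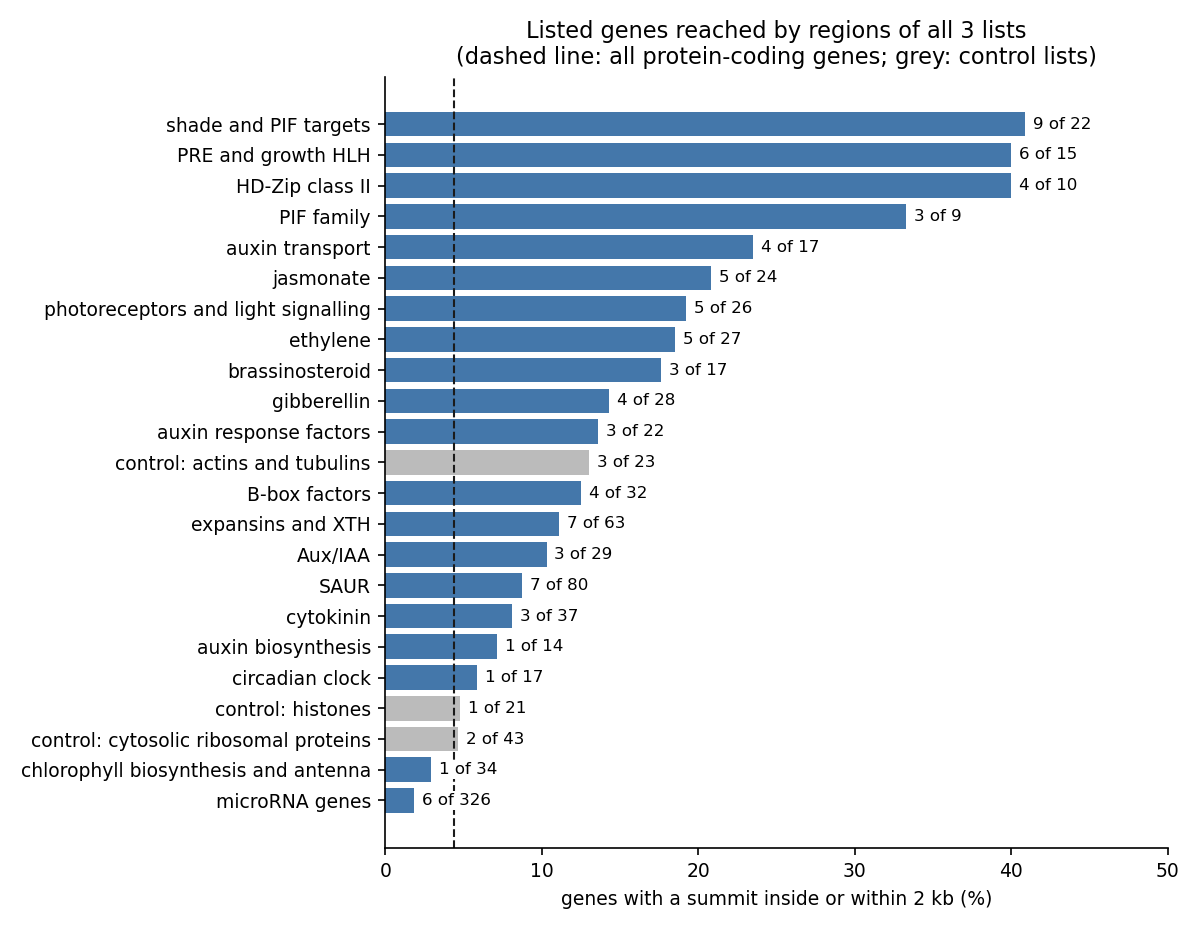
Share of the genes on each list, in percent, reached by a shared region, with counts beside the bars; grey bars are control lists and the dashed line is the share of all protein-coding genes, 4.37%. Shade and PIF targets have the highest share, 40.9%, and actins and tubulins reach 13%.

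Ranking by the worst of the 3 within-list ranks put regions first that were strong by p-value in every list, though not always at the same summit. The leading 15 were PIL1 with ASY3, IBL1, AT4G13540, CKX5, PIF4, P1R3, LBD39, PAR1, ST2A, the region 3590 bp from AT4G16770 in the gap before ATHB2, ATHB4, AT5G17440, PID2, AT5G40470 and AT5G59050. PIL1, the first, stood within the best 1.09% of each list, and AT5G59050, the last, within the best 5.80%. AT4G13540 had folds of 1.92, 3.95 and 6.55. P1R3 had 1.68, 6.83 and 8.79. LBD39, a transcription factor gene tied to nitrogen response, had 1.01, 3.79 and 6.64. The list 1 summit lay 479, 206, 575 and 617 bp from that of list 3 at AT4G13540, P1R3, LBD39 and AT5G17440. At AT5G17440 the list 2 summit lay 610 bp from that of list 3 as well. The folds of these regions need not describe the same site in each list. In the others of the 15 the list 1 and list 3 summits were at most 191 bp apart.

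The remaining regions of these 15 had values in the same range. AT5G17440 had 2.18, 5.26 and 10.36, and AT5G59050 had 2.06, 5.20 and 8.37. PID2, a relative of the kinase PINOID, had 1.45, 5.13 and 7.09, with the summit 3241 bp from the gene. AT5G40470 had 1.03, 4.43 and 7.70. List 3 exceeded list 2 in all of the 15 except PIF4.

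The regions with the highest list 1 fold were mostly others. Their nearest genes were AT3G30165, AT2G34185, ARF8, PDF1, CRR7, AT3G24506, ATHB18 and AT5G17440, with list 1 folds of 2.81, 2.72, 2.64, 2.44, 2.41, 2.3, 2.29 and 2.18. The summits nearest AT3G30165 and AT3G24506 lay 3915 and 2075 bp from these genes, outside the 2 kb window. In list 3 these regions had folds of 5.01, 6.75, 6.87, 4.87, 5.82, 4.34, 5.22 and 10.36. PDF1 is active in the shoot epidermis, and CRR7 belongs to the chloroplast NDH complex. Only AT5G17440 among these 8 was also among the 15 above.

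The regions with most list 3 tags were wide, and 7 of these 8 had a list 1 fold below 1. BRG3 had 1433 tags, the HFR1 and AT1G02350 region 1417, SHL1 1196, UGT85A2 1192, LTP2 1157, GH9B1 1136, SNRK2.5 1133 and BBX28 1120. Their list 1 folds were 1.13, 0.72, 0.65, 0.78, 0.71, 0.57, 0.78 and 0.76. The list 1 summit and the list 3 summit lay 2921 bp apart at BRG3, 3052 bp at SHL1 and 2579 bp at SNRK2.5, but 5 bp apart at UGT85A2. A peak of list 1 in such a region therefore often lay at another place than the list 3 summit.

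A strong list 3 peak did not ensure a list 1 peak. Of the 77 regions with a list 3 fold of at least 10, 36 had peaks of lists 2 and 3 only. NCED3, AFP3, YUC8, TCP15 and ACS8 were among them, named after their values were seen, with list 3 folds of 14.56, 14.56, 13.86, 13.83 and 12.99. Their summits lay 5032, 9, 505, 2309 and 1076 bp from the gene named, so those at NCED3 and TCP15 were outside the 2 kb window. NCED3 makes a precursor of abscisic acid, and YUC8 makes auxin. Against the 41 shared ones, these 36 had a median list 2 fold of 6.98 against 7.74, a share outside genes of 91.7% against 87.8%, and a median list 3 peak length of 782.5 bp against 1317 bp. The shared ones thus had longer list 3 peaks, and the part of length in whether list 1 had a peak was not tested.

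At the edge of the rule, membership turned on a few bases. The smallest overlaps that joined a list 1 peak to a shared region were 3, 22, 23, 30 and 31 bp, at ALY1, AT5G49170, AT1G14580, BGLU9 and AtCDC48B, with list 3 folds of 4.66, 3.21, 3.25, 3.65 and 6.33. The smallest gaps that kept one apart were 2, 5, 6, 25 and 35 bp, at AT3G62630, AT3G53380, AT2G05294, ADS1 and AT3G60070, with list 3 folds of 3.48, 3.56, 4.84, 4.79 and 3.54.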

How the data were processed

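ChIP DNA was sequenced with 50 cycles from one end, from fragments of 200 to 300 bp, with 6 libraries on a lane, per the labels' protocols. TAIR10 was the build, and CASAVA 1.8.0, Bowtie 0.12.7 and MACS 1.4.1 were among the tools, per the submitters' processing notes. Each PIF4-Myc library had its own peak calling, per the file headers: list 2 with MACS 1.4.1 and the other lists with MACS 1.4.0rc2. The p cutoff was 1e-05, per the file headers. Tags per peak are read counts deposited by the authors, except that list 1 tags, all multiples of 5, were treated as a score. The score of a peak, deposited by the authors, is the negative log10 of its p-value times 10. Fold is the authors' ratio, and the false discovery rate is the authors' percent. Folds were ranked within each list. Folds of different lists are set side by side as the authors gave them, with unequal controls and no common scale, and the worst of a region's 3 within-list ranks was used to choose names.

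The members and gene lists were chosen with earlier results of these data known. No test was made over regions, which are not replicates. Gene positions were those of RefSeq on TAIR10.1, taken to share the nuclear coordinates of TAIR10; the PIF4 peak lay in the PIF4 gene. The annotation holds no strand, exon or sequence, so no motif was counted. Named regions were the 15 with the best worst-of-3 rank, the 8 with the highest list 1 fold, the 8 with most list 3 tags, up to 4 genes per gene list, PIF4, and 5 regions on each side of the rule's edge; other names, and all members of some lists, were added after the values were seen. The 22 lists hold 592 genes, 18 of them on several lists. SAUR, ribosomal protein and histone genes were matched by symbol. Merging, summit distances and gene distances were tested on simulated peaks, and the ranking was not. Python 3.11.15, pandas 2.3.3, numpy 2.4.6 and scipy 1.17.1 were used.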

Additional observations from a re-analysis of the deposited data

How the results depend on the processing

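The 785 regions were compared with other definitions. They numbered 119 with a reciprocal overlap of 50%, 351 with the summits of all lists within 100 bp, 323 with a score of at least 100 in every list, 260 in the better-ranked 50% of each list, 218 with equal numbers of best-ranked peaks and 0 at a false discovery rate of 1% or less in every list, where no other value could be had. Leaving out 1 list at a time gave 852 to 2412 regions: 2412 without list 1, 852 without list 2 and 1434 without list 3. The share outside genes was 69.5% with summits within 100 bp, 74.0% with the score of at least 100, 73.1% in the better-ranked 50% and 60.4% to 67.0% without a list. The share within 2 kb was 87.4% with reciprocal overlap, 88.9% in the better-ranked 50%, 88.6% to 92.6% without a list, 78.3% for a 1 kb window and 99.6% for 5 kb. The share with list 1 and list 3 summits within 100 bp was 70.6% with reciprocal overlap, 100% by construction with summits within 100 bp, 48.3% with the score of at least 100, 51.9% in the better-ranked 50%, 50% with equal numbers, 49.3% with the position from list 2 and 44.6% without list 2. The median list 3 fold was 4.83 with summits within 100 bp, 5.95 with the score of at least 100, 5.875 in the better-ranked 50%, 5.025 with equal numbers and 4.31 to 4.43 without a list. In the same order of definitions the genes reached were 171 with reciprocal overlap, 520, 479, 382 and 318, with 1319 to 3207 without a list, 2306 for 5 kb and 702 for the nearest gene alone. Of the 60 values, 22 stayed within their counting interval, or within 1.5 times for counts, and some of these are among the values given above. The cause of these moves was not tested.

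Among the lists, leaving out list 1 changed the number of regions most. No paired analysis was possible because no result comes from a test. The planned G-box and PBE-box shares were not run, since no sequence was used. No depth per position was available, so what depth limits was not tested.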
